A study of Homo sapiens with 7 samples.

Results

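The 6 genes described here are BIK, PIP5K1A, CSNK1A1, CSNK1E, PRKCD and RBM10, taken by gene symbol from 16045 genes with a sense polyadenylation site (PAS) in the 3 count tables. They are a known target mRNA of the nuclear poly(A) polymerase Star-PAP and genes for the kinases and the RNA-binding protein that act with it. All 6 were listed in every table, each of which held 17 of their sense PASs. HEK293 cells, a line derived from human embryonic kidney, received siRNAs that target Star-PAP (siStarPAP), PAPα (siPAPa), PAPγ (siPAPg) or both canonical enzymes (siPAPag), or a control siRNA (siCtrl). Total RNA was read by 3′READS, in which a read marks the position where an RNA was cleaved and polyadenylated. There were 7 libraries, 1 per condition, with a second siCtrl and siStarPAP pair (batch 2) made by the 3′READS+ protocol. The double KD is set against the siCtrl library of batch 1, which its table repeats with the same reads at 33941 of 34060 shared PASs. Its label names no batch, and it is counted with batch 1 on that ground alone. The paper mentions different batches of experiments for the Star-PAP and the double KD. No label names separate cultures within a batch, and a knockdown by siRNA leaves some of the target protein.

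Poly(A) polymerases add the tail to the 3′ end of an mRNA after it has been cleaved downstream of a hexamer such as AAUAAA. Star-PAP, encoded by TUT1, is a non-canonical polymerase that works on selected mRNAs, whereas PAPα and PAPγ, encoded by PAPOLA and PAPOLG, are the canonical nuclear enzymes. PIPKIα (PIP5K1A) makes the lipid PI4,5P2, which stimulates Star-PAP. CKIα (CSNK1A1) and CKIε (CSNK1E) phosphorylate Star-PAP, and PKCδ (PRKCD) acts with PIPKIα on Star-PAP after DNA damage. RBM10 is an RNA-binding protein that works with Star-PAP at some of its targets. BIK is one of these targets and encodes a BH3-only protein that promotes apoptosis.

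BIK, PIP5K1A and RBM10 each had 1 PAS that held nearly all of their reads, CSNK1E had 2 and CSNK1A1 had 11 over the 3 tables. The 30 bases that end at a PAS are shown for the sites on which the values below rest, as DNA of the gene's strand in the hg19 genome, with the poly(A) signal hexamer in capitals where these bases hold one.
BIK, 407 nt after the stop codon: gagtgctcAATAAAatgttggtttccagca
PIP5K1A, 1666 nt after the stop codon: aatgtAATAAActttaatgagttatttaga
CSNK1A1, intronic: gtacatacttAATAAAtatttactcggaaa
CSNK1A1, 959 nt after the stop codon: tctccccaattttttgatagactacttcaa
CSNK1A1, 1593 nt after the stop codon: tgaaattgtaaattgacacgtgtttggtca
CSNK1A1, 3871 nt after the stop codon: aattatcaaAATAAActggtagcaacgtta
CSNK1E, intronic in the RefSeq model of the file: tctatgggcAATAAAggccaagagagctcc
CSNK1E, last exon, 1280 nt after the stop codon: tgaagtAATAAAgtagaaaagataaagtga
PRKCD, 451 nt after the stop codon: tgtgtctaAATAAAcaccaaatagtaccaa
RBM10, 214 nt after the stop codon: tgttttgtAATAAAagctgaaaagtctgca

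In hg19 these windows lie at chr22:43525689-43525718 for BIK and chr1:151221978-151222007 for PIP5K1A, both on the plus strand. The PRKCD window is chr3:53226704-53226733 and that of RBM10 chrX:47046183-47046212, also on the plus strand. CSNK1E is on the minus strand, with the intronic window at chr22:38692211-38692240 and the last-exon window at chr22:38686697-38686726. CSNK1A1 is on the minus strand too, from chr5:148926386-148926415 for the intronic site to chr5:148872545-148872574 for the most distal one. In GENCODE (v44lift37), the sites shown in last exons lie in the 3′UTR. Those of BIK, PIP5K1A, CSNK1E, PRKCD and RBM10 coincide with an annotated transcript end, as does the CSNK1A1 site 3871 nt after the stop codon. The intronic CSNK1E site coincides with the end of the shorter transcript CSNK1E-206, 356 nt after its stop codon, and lies within the readthrough gene TPTEP2-CSNK1E, from which its reads cannot be told apart. The CSNK1A1 sites from 232 to 1593 nt after the stop codon are overlapped on the same strand by ENSG00000230551.

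The hexamers AATAAA and ATTAAA and 10 variants (AGTAAA or TATAAA or CATAAA or GATAAA or AATATA or AATACA or AATAGA or ACTAAA or AAGAAA or AATGAA) were searched on the gene's strand in the 40 nt before each PAS. Of the 24 sites of the 6 genes, 9 held AATAAA, 2 ATTAAA, 8 a variant and 5 none. At the CSNK1A1 site 959 nt after the stop codon, AATAAA begins 37 nt upstream and so lies outside the 30 bases shown. Over all 51882 sense PASs of batch 1, 46.4% held AATAAA and 17.5% none. The AUA trimer, a base of the Star-PAP motif, was counted as ATA on the same strand from 100 to 41 nt before each PAS. It was found at 15 of the 24 sites, against 59.4% of all sense PASs. The main BIK site had 2, the PRKCD site 4 and the RBM10 site 0, and CSNK1E had 1 at each of its sites. Some of the 24 windows overlap, and a match describes the sequence only.

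The tables held between 2347192 sense reads (siStarPAP of batch 2) and 16191098 (siPAPa) per library, which was 54.5% to 70.5% of the PAS-supporting (PASS) reads of each. Levels are in RPM, the reads of a gene per 1000000 PASS reads of its library, and a gene with more than 50 reads over a pair of libraries was called when its RPM values differed by over 2-fold. A condition has 1 library in each batch, so that no replicate check is possible within one, and the 95% intervals below cover counting error only. TUT1 had 83 reads in siCtrl and 2 in siStarPAP of batch 1, and PAPOLA had 71 in siCtrl and 12 in siPAPa. PAPOLA was called lower in siStarPAP of batch 1 too, with 44 reads and a ratio of 0.428 (0.287 to 0.632). The same call was met by 26.2% of all genes. In batch 2 PAPOLA had 34 reads in siStarPAP and 45 in siCtrl, a ratio of 0.898 (0.558 to 1.43), and was not called. PAPOLG had 5 reads in siCtrl of batch 1, 15 in the library labelled siPAPg and 6 in siPAPag, so its reads did not check the siPAPg label. TUT1 with 6 and 4 reads did not check the siStarPAP label of batch 2. Markers fixed for the line were detected in all libraries for KRT18, VIM, CDH2 and NEFL, whereas PTPRC, CD3E, ALB and COL1A2 of other cell types were not listed and DES and MYOD1 were at most at 0.471 RPM. The other 4 markers of the line were low, with PAX2 and LHX1 at most at 2.77 RPM, KRT8 between 0.396 and 3.24 RPM and NEFM between 0.235 and 11.8 RPM.

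BIK was lower in every knockdown than in the siCtrl library that it was set against. It had 3493 reads in siCtrl of batch 1 (306 RPM), 1282 in siStarPAP (77.5 RPM), 1125 in siPAPa (44.8 RPM), 1081 in the library labelled siPAPg (73.1 RPM) and 665 in siPAPag (35.4 RPM). The siCtrl value stood above all 4 knockdowns, and that of siPAPag was the lowest. The ratio to siCtrl was 0.253 in siStarPAP (95% interval 0.238 to 0.270), 0.147 in siPAPa (0.137 to 0.157), 0.239 in siPAPg (0.223 to 0.256) and 0.116 in siPAPag (0.106 to 0.126). These ratios share 1 siCtrl library. In bulk RNA, fewer cells with a transcript and less of it per cell cannot be told apart.

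In batch 2 BIK was scarce. It had 18 reads in siCtrl (3.57 RPM) and 3 in siStarPAP (0.706 RPM), a ratio of 0.198 with a counting interval from 0.0374 to 0.678, and it stayed below the 50 reads needed for a call. The direction was that of batch 1, but the level was not. The siCtrl level of BIK was 85.7-fold higher in batch 1 than in batch 2 (54.2 to 145). Of 9570 genes with a read in each siCtrl library and more than 50 reads over both, 22 had a higher ratio. Genes without a read in either siCtrl library were not ranked. The median gene differed by 0.39 between the siCtrl libraries on the log2 scale, with 5% of genes below -3.25 and 5% above 3.65. The batches differ in protocol, and protocol and batch cannot be told apart.

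**Figure D1:**
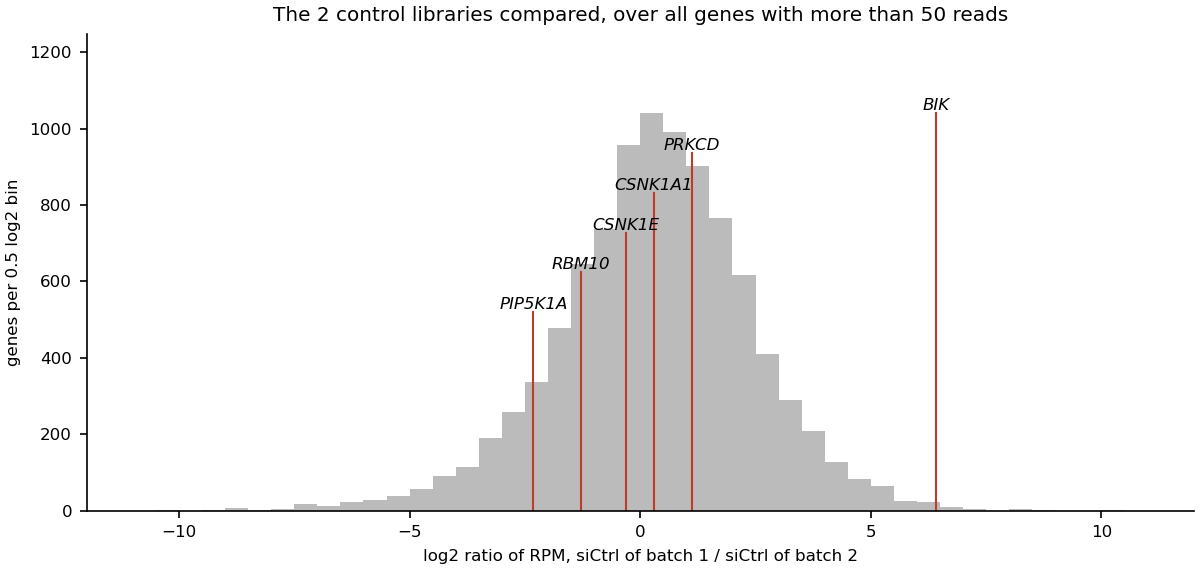
Log2 ratio of RPM in siCtrl of batch 1 to siCtrl of batch 2 (x axis) against the number of genes per bin (y axis) for the 9570 genes compared, with the 6 genes as red lines. BIK lies at 6.42 at the upper edge of the distribution, and the other 5 genes lie between -2.32 (PIP5K1A) and 1.12 (PRKCD).

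PIP5K1A, which makes the PI4,5P2 that stimulates Star-PAP, did not pass 2-fold in any knockdown. It had 80 reads in siCtrl of batch 1 (7.0 RPM), 72 in siStarPAP (4.35 RPM), 159 in siPAPa (6.34 RPM), 59 in siPAPg (3.99 RPM) and 121 in siPAPag (6.44 RPM). In batch 2 it had 176 reads in siCtrl (34.9 RPM) and 105 in siStarPAP (24.7 RPM). In RPM it was lower than in siCtrl in siStarPAP of both batches, with ratios of 0.621 (0.446 to 0.865) and 0.709 (0.551 to 0.908). In siPAPg the ratio was 0.570 (0.400 to 0.807). The median gene was lower in these comparisons too, at log2 ratios of -0.45, -0.16 and -0.33, each within the counting interval of PIP5K1A. Relative to the median gene, PIP5K1A was at -0.24, -0.33 and -0.48. The intervals in siPAPa and siPAPag included 1, and with TMM factors both lay above siCtrl at log2 ratios of 0.19 and 0.31.

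CSNK1A1, the gene for CKIα, was lower in all 5 comparisons and passed 2-fold in 1. It had 295 reads in siCtrl of batch 1 (25.8 RPM), 243 in siStarPAP (14.7 RPM), 304 in siPAPa (12.1 RPM) and 194 in siPAPg (13.1 RPM). The table of the double KD lists other sites, with 266 reads in siCtrl (23.3 RPM) and 238 in siPAPag (12.7 RPM). The ratio was 0.469 in siPAPa (0.399 to 0.553), which passed 2-fold, and 0.569 in siStarPAP, 0.508 in siPAPg and 0.544 in siPAPag, which did not. With TMM or DESeq2 size factors the siPAPa value no longer passed 2-fold, at log2 ratios of -0.75 and -0.78. In batch 2, 106 reads in siCtrl (21.0 RPM) stood against 62 in siStarPAP (14.6 RPM), a ratio of 0.695 (0.4996 to 0.960). The knockdown levels of batch 1 lay within 12.1 to 14.7 RPM, and the intervals of their ratios to siCtrl overlapped. Set directly against siPAPa, siStarPAP was at a ratio of 1.21 (1.02 to 1.44).

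CSNK1E, the gene for CKIε, was lower in siStarPAP in both batches and, in RPM, near the siCtrl level in the other knockdowns. It had 792 reads in siCtrl of batch 1 (69.3 RPM), 620 in siStarPAP (37.5 RPM), 1861 in siPAPa (74.2 RPM), 1082 in siPAPg (73.1 RPM) and 1384 in siPAPag (73.6 RPM). In batch 2 it had 434 in siCtrl (86.0 RPM) and 201 in siStarPAP (47.3 RPM). The siStarPAP ratio was 0.541 in batch 1 (0.486 to 0.601) and 0.550 in batch 2 (0.463 to 0.652), so the batches agree within counting error, and neither passed 2-fold. The ratios in siPAPa (1.07), siPAPg (1.06) and siPAPag (1.06) had intervals that included 1. This depends on the scaling, since relative to the median gene their log2 ratios were 0.36, 0.41 and 0.47. With TMM factors the siStarPAP log2 ratio was -0.41 in batch 1 and -0.68 in batch 2. Set directly against each other without siCtrl, siStarPAP had 0.505 times the CSNK1E level of siPAPa (0.460 to 0.553) and 0.512 times that of siPAPg (0.463 to 0.566).

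PRKCD, the gene for PKCδ, was the member with the fewest reads summed over the 7 libraries. It had 59 reads in siCtrl of batch 1 (5.16 RPM), 133 in siStarPAP (8.04 RPM), 200 in siPAPa (7.97 RPM), 61 in siPAPg (4.12 RPM) and 115 in siPAPag (6.12 RPM). In batch 2 it had 12 in siCtrl (2.38 RPM) and 16 in siStarPAP (3.77 RPM). The ratios in siStarPAP of batch 1 (1.56, 1.14 to 2.15) and in siPAPa (1.54, 1.15 to 2.10) had intervals above 1, and those in siPAPg (0.799), siPAPag (1.19) and siStarPAP of batch 2 (1.58, 0.703 to 3.67) included 1. None passed 2-fold, though siStarPAP of batch 1 did with TMM factors, at a log2 ratio of 1.12.

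RBM10, the RNA-binding partner, had 144 reads in siCtrl of batch 1 (12.6 RPM), 162 in siStarPAP (9.79 RPM), 559 in siPAPa (22.3 RPM), 255 in siPAPg (17.2 RPM) and 376 in siPAPag (20.01 RPM). The 3 libraries with a canonical polymerase knocked down were above siCtrl and the siStarPAP library was below it. The ratios were 1.77 in siPAPa (1.47 to 2.14), 1.37 in siPAPg (1.11 to 1.69), 1.59 in siPAPag (1.31 to 1.94) and 0.777 in siStarPAP (0.617 to 0.979). In batch 2 the order of siCtrl and siStarPAP was the other way round, with 155 reads in siCtrl (30.7 RPM) against 219 in siStarPAP (51.5 RPM) and a ratio of 1.68 (1.36 to 2.08). The siStarPAP value of batch 1 also depends on the scaling, since with TMM factors of edgeR its log2 ratio of -0.36 became 0.11. With these factors RBM10 passed 2-fold in siPAPa, at a log2 ratio of 1.16.

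**Figure D2:**
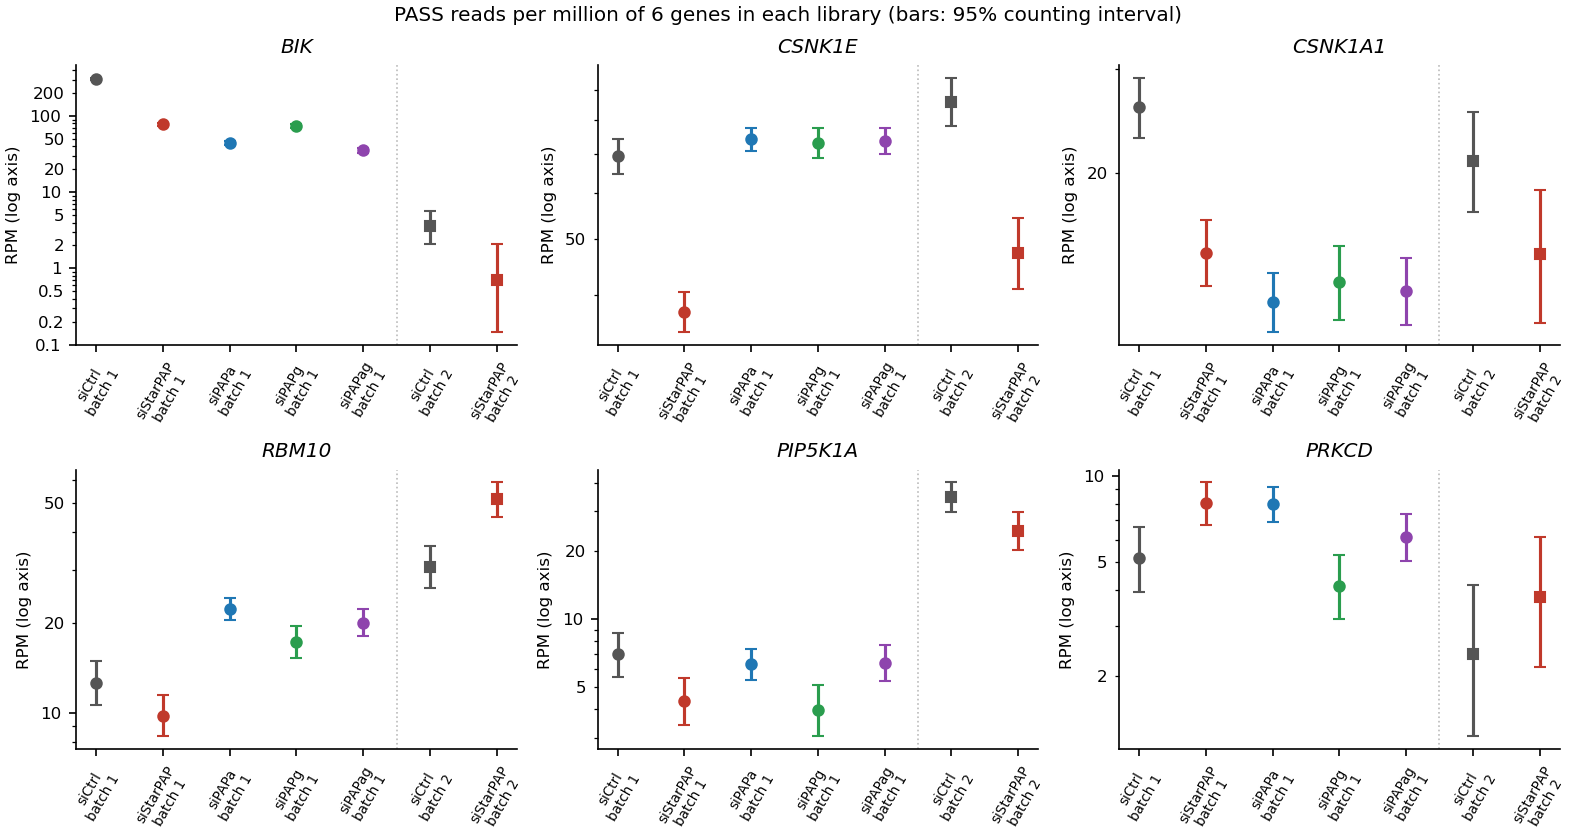
RPM on a log axis (y axis) in each of the 7 libraries (x axis) for the 6 genes, with 95% counting intervals as bars, circles for batch 1 and squares for batch 2. BIK falls from 306 RPM in siCtrl of batch 1 to 35.4 RPM in siPAPag and is at 3.57 RPM in siCtrl of batch 2, and the lowest CSNK1E value in each batch is that of siStarPAP.

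Counted over the 6 genes, 1 was called lower in siStarPAP of batch 1 (BIK), 2 in siPAPa (BIK and CSNK1A1), 1 in siPAPg (BIK) and 1 in siPAPag (BIK), and 0 were called higher. The share of all genes called lower was 26.2% in siStarPAP of batch 1, 22.1% in siPAPa, 20.7% in siPAPg and 26.5% in siPAPag, so that the counts over the 6 genes are near this background. In siStarPAP of batch 2, 4 of the 6 genes had more than 50 reads and 0 were called, against 11.7% of all genes lower and 3.55% higher. Genes called higher made up 4.44%, 8.50%, 5.67% and 6.98% of those tested in siStarPAP, siPAPa, siPAPg and siPAPag of batch 1.

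The median gene was itself lower in each knockdown, by a log2 ratio of -0.45 in siStarPAP of batch 1, -0.26 in siPAPa, -0.33 in siPAPg, -0.38 in siPAPag and -0.16 in siStarPAP of batch 2. TMM factors moved these medians to between 0.01 and 0.08, and the share of calls in siStarPAP of batch 1 that were lower from 85.5% to 52.5%. In siPAPa that share moved from 72.2% to 48.0%, in siPAPg from 78.5% to 49.3%, in siPAPag from 79.1% to 50.4% and in siStarPAP of batch 2 from 76.7% to 58.03%, while BIK was lower under every scaling. Relative to the median gene, the log2 ratio of BIK was -1.53 in siStarPAP of batch 1, -2.51 in siPAPa, -1.74 in siPAPg, -2.73 in siPAPag and -2.17 in siStarPAP of batch 2. Between 1.22% and 5.87% of genes had a lower ratio than BIK in the comparisons of batch 1. In batch 2 the share was 0.772%, but BIK had 21 reads there, while the genes that it was ranked among had more than 50. On the same scale CSNK1E was at -0.44 and -0.70 in siStarPAP of the 2 batches and at 0.36, 0.41 and 0.47 in siPAPa, siPAPg and siPAPag. RBM10 was at 0.08 and 0.91 in siStarPAP of the 2 batches and at 1.08, 0.78 and 1.05 in siPAPa, siPAPg and siPAPag.

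**Figure D3:**
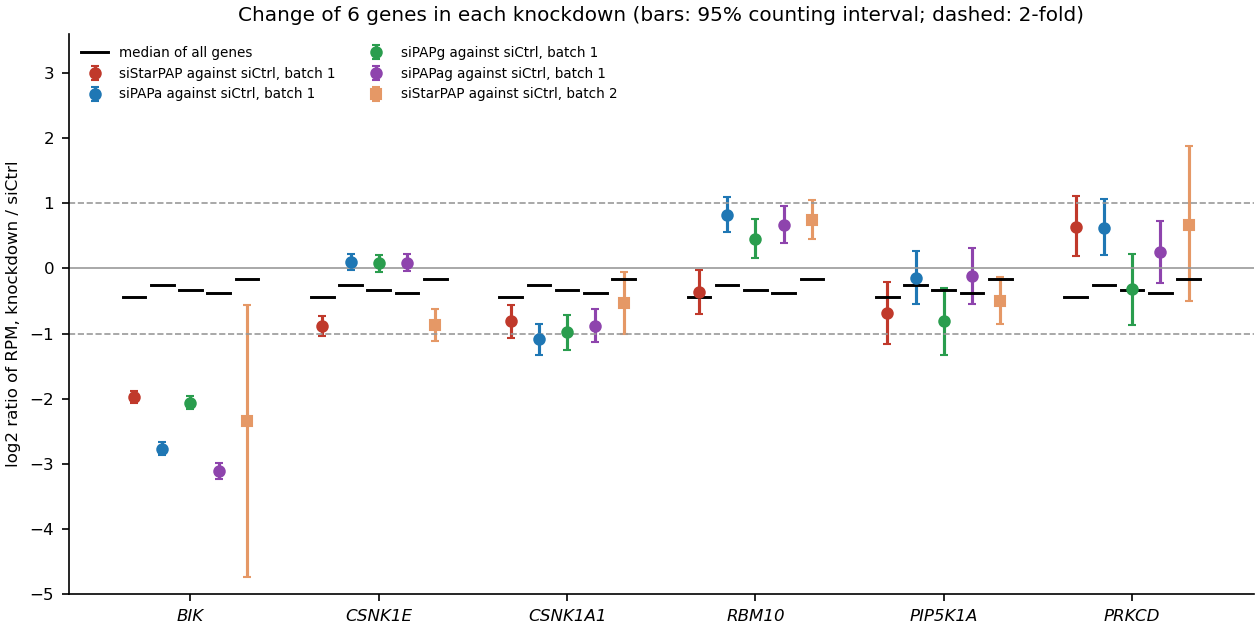
Log2 ratio of RPM of each knockdown to the siCtrl library that it was set against (y axis) for the 6 genes (x axis). Bars are 95% counting intervals, black ticks are the median of all genes in that comparison and dashed lines are at 2-fold. All BIK points lie at -1.98 or lower, the siStarPAP points of CSNK1E lie at -0.89 and -0.86 and its other points at 0.08 to 0.10, and RBM10 lies on either side of 0 in the siStarPAP batches.

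The knockdowns of batch 1 were also set directly against each other for the 6 genes, in 3 pairs. The 1 call was RBM10, which was lower in siStarPAP than in siPAPa at a ratio of 0.439 (0.366 to 0.524), where 15.7% of all genes were called lower and 6.91% higher. BIK was higher in siStarPAP than in siPAPa (1.73, 1.59 to 1.87) and lower in siPAPa than in siPAPg (0.614, 0.564 to 0.668), while siStarPAP and siPAPg were at a ratio of 1.06 (0.977 to 1.15). PRKCD was 1.95 times as high in siStarPAP as in siPAPg (1.43 to 2.68). The share of all genes called lower was 10.4% for siStarPAP against siPAPg and 5.16% for siPAPa against siPAPg, and the share called higher was 5.44% and 6.97%.

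For siStarPAP against siCtrl, both batches were fitted together with edgeR's quasi-likelihood test and batch as a block, which leaves 1 residual degree of freedom. BIK was the 1 member called, with a log2 fold change of -1.59 ± 0.41 (SE, 2 libraries per condition) and a Benjamini-Hochberg adjusted p of 0.0393. In the same fit 1.08% of 11878 genes were called lower and 1.23% higher, or 2.31% in either direction. CSNK1E had -0.52 ± 0.33 (adjusted p = 0.487), CSNK1A1 -0.32 ± 0.37 (0.758), PIP5K1A -0.24 ± 0.38 (0.835), RBM10 0.54 ± 0.36 (0.520) and PRKCD 1.03 ± 0.57 (0.414). Most BIK reads are from batch 1, and without the batch block its adjusted p was 1.00, with 0 genes called of 11878 and 54 at an unadjusted p below 0.05.

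The use of a PAS was taken as its share of the reads of the gene, and Fisher's exact test (two-sided) set the reads at the PAS against those at the gene's other PASs, with p-values adjusted over all PASs tested. This compares the reads of 2 libraries, not conditions. In siStarPAP of batch 1, 2 of 8 member PASs tested were called, against 51.0% of all PASs tested. The counts were 5 of 9 in siPAPa (background 57.5%), 1 of 8 in siPAPg (47.0%), 6 of 7 in siPAPag (56.8%) and 0 of 5 in siStarPAP of batch 2 (18.9%). Calls with a change of at least 10 percentage points numbered 2 in siStarPAP of batch 1 (background 33.8%), 1 in siPAPa (38.7%), 1 in siPAPg (30.8%), 3 in siPAPag (37.3%) and 0 in siStarPAP of batch 2 (13.2%). The counts lie on both sides of the background and rest on few sites, several of them of 1 gene, and the size of each change is given below.

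CSNK1E used its 2 sites differently in siPAPa and siPAPag. The intronic site held 84.0% of CSNK1E reads in siCtrl of batch 1 (665 of 792), 86.9% in siStarPAP, 75.4% in siPAPa, 83.4% in siPAPg and 68.3% in siPAPag (945 of 1384). Its share was lower in siPAPa (Fisher's exact test, adjusted p = 3.48e-06) and siPAPag (adjusted p = 3.44e-15), and the other 2 knockdowns of batch 1 were not called. The last-exon site was at 11.1 RPM in siCtrl, 18.3 in siPAPa and 23.4 in siPAPag, a ratio of 2.10 in siPAPag (1.72 to 2.58), while the intronic site was at 58.2 RPM in siCtrl, 55.9 in siPAPa and 50.3 in siPAPag. With 2 sites per gene, the calls of both sites are a single change.

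In siStarPAP both CSNK1E sites were lower. The intronic site had 0.560 times its siCtrl level in batch 1 (0.499 to 0.628) and the last-exon site 0.440 times (0.329 to 0.586), and the share of the intronic site in batch 2 was 29.5% in siCtrl and 35.3% in siStarPAP (adjusted p = 0.332). The last-exon site held 16.0% of CSNK1E reads in siCtrl of batch 1 and 70.5% in siCtrl of batch 2, so that the 2 control libraries differed more than any knockdown did from its own control.

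**Figure D4:**
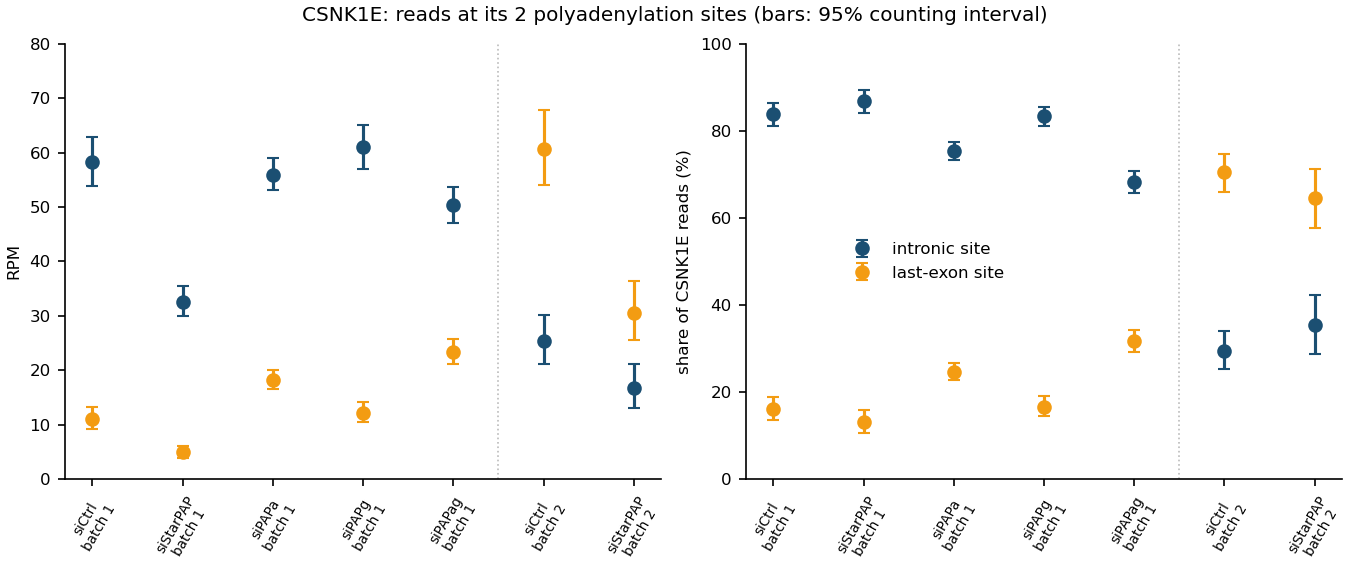
RPM (left y axis) and share of CSNK1E reads in percent (right y axis) at the intronic site (blue) and the last-exon site (orange) in each of the 7 libraries, with 95% counting intervals. The share of the last-exon site rises from 16.0% in siCtrl to 24.6% in siPAPa and 31.7% in siPAPag, and in batch 2 the last-exon site is the larger one.

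CSNK1A1 was the member with the most sites, and values are given for 4 of its 11. In siStarPAP of batch 1 the most distal site, 3871 nt after the stop codon, rose from 13.6% of CSNK1A1 reads (40 of 295) to 29.2% (71 of 243), with an adjusted p of 4.56e-05 in Fisher's exact test. Its level was 3.50 RPM in siCtrl and 4.29 in siStarPAP, a ratio of 1.23 with an interval that included 1 (0.820 to 1.85). The level of the gene was lower. This site is listed in the table of batch 1 only. In siPAPa the site 959 nt after the stop codon rose from 22.0% to 46.1% (adjusted p = 4.42e-09), in siPAPg to 40.2% (9.34e-05) and in siPAPag from 24.4% to 45.4% (3.86e-06). Its level stayed near that of siCtrl, 5.69 RPM, with 5.58 in siPAPa, 5.27 in siPAPg and 5.75 in siPAPag. In siStarPAP the same site held 27.2% of reads and was not called (adjusted p = 0.275).

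Fewer reads lay at the intronic CSNK1A1 site in the knockdowns of batch 1 than in the 1 siCtrl library that they share. The intronic site had 40 reads in siCtrl of batch 1, 13 in siPAPa, 1 in siStarPAP and 0 in both siPAPg and siPAPag. Its share in siPAPa was 4.28% against 13.6% (adjusted p = 0.000225, Fisher's exact test). In siStarPAP, siPAPg and siPAPag it did not have the more than 50 reads over the pair that the test required, so it was not tested there. A count of 0 allows up to 3 reads by a one-sided 95% limit. In batch 2 the intronic site had 3 reads in siCtrl and 1 in siStarPAP, and the interval of the ratio, 0.00754 to 4.93, included 1. Its share was 2.83% in siCtrl of batch 2 against 13.6% in siCtrl of batch 1, so the control libraries also differed at this site. The site 1593 nt after the stop codon had 24 reads in siCtrl and 0 in siStarPAP of batch 1, too few to be tested. In batch 2 this site had 39 and 13 reads, and its share was 36.8% and 21.0% (adjusted p = 0.134, Fisher's exact test). In the edgeR test of relative PAS use over both batches it had a log2 relative change of -1.48 with an unadjusted p of 0.0284 and an adjusted p of 1.00. That test called 0 of 5 member PASs and 0.0396% of 7578 PASs, with 1 member PAS and 241 PASs at an unadjusted p below 0.05.

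**Figure D5:**
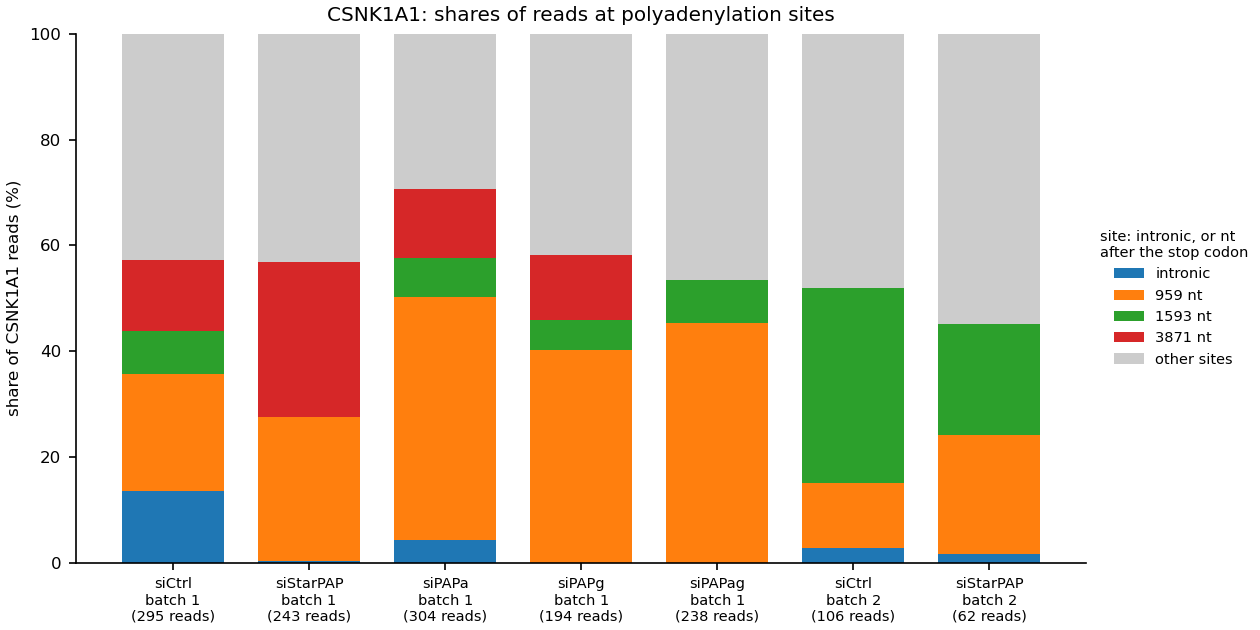
Share of CSNK1A1 reads in percent (y axis) as stacked bars in each of the 7 libraries (x axis), for the intronic site, for 3 sites named by their distance in nt after the stop codon and for the other sites pooled (grey), with the number of CSNK1A1 reads under each bar. The 959 nt site takes 40.2% to 46.1% in siPAPa, siPAPg and siPAPag, and the 3871 nt site, which is not listed in the tables of siPAPag and batch 2, takes 29.2% in siStarPAP of batch 1.

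PRKCD, RBM10 and BIK kept to 1 main site in batch 1. The main PRKCD site rose from 86.4% (51 of 59) to 100% (133 of 133) in siStarPAP (adjusted p = 0.000223, Fisher's exact test), since 8 siCtrl reads at a site 271 nt after the stop codon had no counterpart there. In batch 2 a PRKCD site at 275 nt, listed in place of that at 271 nt, held 6 of 12 siCtrl reads and 10 of 16 siStarPAP reads, and the main site 4 in each. The RBM10 site moved from 97.2% to 100% in siPAPag (adjusted p = 0.0119) and the BIK site from 100% to 99.4% (0.00168), the latter from 4 reads at a second site 157 nt after the stop codon. PIP5K1A had 4 reads away from its main site, all in siPAPg.

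The families of the members were described in siStarPAP of batch 1 for genes with more than 50 reads, with log2 ratios of RPM. Of 5 PI4,5P2 kinases listed at this depth, 1 was called lower, PIP5K1C at -1.004, and the highest was PIP4K2A at -0.15. Of 5 casein kinase 1 genes 0 were called, with CSNK1E the lowest and CSNK1D the highest at -0.39. Of 4 protein kinase C genes 0 were called, from PRKCA at -0.97 to PRKCD at 0.64, the highest. In the family of RBM10, RBM6 was called lower at -1.26 and RBM5 was at 0.09. Of 12 BCL2 family genes, 3 were called lower, BIK, BCL2L2 and BCL2L1, near the 26.2% of all genes, with the anti-apoptotic BCL2L1 at -3.21 the lowest, and the pro-apoptotic BAD at 0.38 the highest. Family medians were between -0.36 and -0.69, beside -0.45 for all genes, and in the edgeR fit over both batches BIK was the only gene of these families called.

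Genes were ranked by the distance of their 5 log2 ratios, each relative to the median, from those of a member, among 3750 genes with at least 50 reads in both libraries of all 5 comparisons. The nearest to CSNK1E were RMND5B, POLE and PDXP (distances 0.26, 0.31 and 0.36), to CSNK1A1 PANK4, MOBKL2A and MAP2K5 (0.17, 0.19 and 0.27), to RBM10 RBM12, DPH2 and KIAA0101 (0.21, 0.24 and 0.36), and to PIP5K1A MGC16121, C10orf57 and PROSC (0.14, 0.18 and 0.29). PRKCD and BIK had too few reads in batch 2. Since 4 of the 5 ratios share a siCtrl library, these distances are a description.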

How the data were processed

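The authors sequenced 3′ ends of total RNA from HEK293 cells and aligned them with Bowtie2 (hg19). Unique alignments that carried 2 or more untemplated Ts were PASS reads, and sites no more than 24 nt apart were joined. The deposited values are PASS read counts per PAS, assigned to RefSeq genes and not normalized. Sense PASs of a gene were summed here, and RPM uses the PASS read totals that the study gives. Ratios have exact binomial intervals. Fisher's exact test was run over all PASs with more than 50 reads in genes with at least 2 PASs. The libraries of a batch belong together by their labels and protocol, so batch was a block in the edgeR fit (TMM, filterByExpr). Deviations from the condition means correlated at r = 0.870. With 2 libraries per condition this value is the same for both batches by construction, so it is not a separate check of each. Sequences were read from the GRCh37 genome. The tables hold 0 columns without a sample. R 4.3.3, edgeR 4.0.16, DESeq2 1.42.0, Python 3.11.15 and scipy 1.17.1 were used, after tests on simulated data. The 6 genes, families and settings were chosen with earlier results of these data known. Named were the 6 genes, the 3 knocked-down genes, the highest and lowest of each family and those called in the fit, and 3 neighbours per gene. Values are given for 4 of 11 CSNK1A1 sites, and the others are not reported here. BCL2L2 and the sites shown were chosen after their values were seen. Alternatives were other scalings, filters, folds, PAS rules and fits.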

Additional observations from a re-analysis of the deposited data

Results flagged for a closer look

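Log2 ratios of opposite sign in different comparisons drew attention to 3 genes. For differences within batch 1 the siCtrl library is shared and the difference between single knockdowns equals their direct comparison, and with 1 library per condition none was tested. CSNK1E was below siCtrl in siStarPAP and above it in siPAPa, siPAPg and siPAPag. In the latter its RPM intervals included no change, while relative to the median gene it was at 0.36, 0.41 and 0.47. Its log2 ratio there was higher than in siStarPAP of batch 1 by 0.99, 0.97 and 0.98. Compared with siStarPAP of batch 2 it was higher by 0.96, 0.94 and 0.95. PRKCD was below siCtrl in the library labelled siPAPg, where its interval included no change, and the log2 ratio was higher by 0.96 in siStarPAP of batch 1, 0.95 in siPAPa and 0.57 in siPAPag, where the interval also included no change. With TMM factors PRKCD was above 0 in siPAPg too, at 0.05. RBM10 was below siCtrl in siStarPAP of batch 1, and its log2 ratio was higher by 1.19 in siPAPa, 0.82 in siPAPg and 1.03 in siPAPag. The same knockdown in batch 2 gave RBM10 a log2 ratio higher by 1.11 than in batch 1, while under TMM factors both batches were above 0, at 0.11 and 0.92.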

How the results depend on the processing

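BIK was lower in every alternative run. Of 6 genes, the number past 2-fold in siStarPAP of batch 1 was 1, and 2 with TMM or DESeq2 size factors (PRKCD added, higher). In siPAPa it was 2, 1 with table totals (CSNK1A1 lost), and 2 with TMM or DESeq2 size factors, where CSNK1A1 was lost and RBM10 added, higher. In siPAPag it was 1, and 2 with TMM or DESeq2 size factors (RBM10 added, higher). In siStarPAP of batch 2 it was 0, and 1 with more than 20 reads or with a read in both libraries (BIK, lower). Of all genes, 15.4% and 18.6% were lower under these settings, and 5.34% and 8.38% higher. With TMM factors 12.8%, 13.8% and 15.0% of all genes were lower in siStarPAP of batch 1, siPAPa and siPAPag, and 11.6%, 15.0% and 14.7% higher. With DESeq2 size factors the shares were 12.9%, 14.3% and 14.9% lower and 11.5%, 14.2% and 14.9% higher. Table totals in siPAPa gave 18.7% lower and 10.4% higher. With a fold above 1.5 the counts were 5, 4, 3, 3 and 2 in siStarPAP, siPAPa, siPAPg, siPAPag and siStarPAP of batch 2, beside 43.2%, 36.5%, 37.7%, 41.5% and 26.3% of all genes lower and 10.2%, 17.2%, 12.2%, 14.3% and 11.4% higher. The direct comparisons gave 1 call, 4 with table totals, 2 with TMM or DESeq2 size factors and 9 with a fold above 1.5. For siStarPAP against siPAPa, siStarPAP against siPAPg and siPAPa against siPAPg, table totals put 17.4%, 15.3% and 7.23% of all genes lower. The shares higher were 6.15%, 3.41% and 5.18%. With TMM factors they were 12.3%, 8.51% and 5.71% lower and 9.16%, 6.96% and 6.46% higher. A fold above 1.5 gave 29.9%, 23.5% and 14.6% lower and 15.7%, 13.5% and 17.9% higher. Member PASs called in siStarPAP of batch 1 were 2 of 8, and 4 of 11 with more than 20 reads (47.0% of all PASs tested) or 5 of 13 with more than 5% of reads (39.4%). In siPAPg they were 1 of 8, and 3 of 11 (40.6%) or 3 of 14 (27.9%). With at least 10 percentage points they were 1 in siPAPa and 3 in siPAPag. Without the replicate block the edgeR fit called 0 members in place of 1, and BIK had a log2 change of -1.47. BIK stayed called with RLE factors (adjusted p = 0.0436), no filter (0.00991), antisense sites (0.0407) and DESeq2 (0.0159), and with PASS read totals, chosen after seeing the data (0.0398). Over all genes the fit called 128 lower and 146 higher, 0 without the block, 232 and 212 with no filter, 83 and 199 by DESeq2 (4992 tested) and 74 and 16 with PASS totals. The relative PAS use test called 3 PASs, 0 without the replicate block, 0 within 24 nt and 4 with at least 10 reads. Over all genes, 2637 were lower and 448 higher in siStarPAP of batch 1, and 1295 and 1173 with TMM factors. The figures were 2388 and 919 against 1492 and 1617 in siPAPa, 2105 and 576 against 1118 and 1151 in siPAPg, 2656 and 700 against 1502 and 1478 in siPAPag, and 831 and 253 against 589 and 426 in siStarPAP of batch 2. PASs called in siStarPAP of batch 1 were 5397, 3578 with at least 10 percentage points and 13822 with more than 5% of reads. Leaving out batch 1 or 2 left no test, with BIK at -2.16 or -1.50. The causes were not tested. Depth limits BIK and PRKCD in batch 2 (21 and 28 reads).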
